A study of Homo sapiens with 12 samples.

Results

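Riboflavin (vitamin B2), cobalamin (vitamin B12) and folate enter human cells through dedicated binding proteins and membrane carriers, and 8 genes of this kind are described here out of 19647 genes measured in A549 cells. They are TCN1 and TCN2, SLC52A1, SLC52A2 and SLC52A3, SLC19A1, SLC46A1 and FOLR1. The genes were chosen by their function and by the fold changes that both arms of the study had shown, so their values are given as description and the adjusted p-values printed for them are no independent evidence. A549 is an established line of human non-small cell lung cancer, and all 12 RNA-seq libraries are of it, with no drug treatment. The groups have 3 libraries each and are NR0B1 OE (cells overexpressing NR0B1), OE control, NR0B1 KD (cells in which a short hairpin RNA, labelled shNR0B1, lowers NR0B1) and KD control (labelled shNC). The genotype labels of the controls are WT-overexpression control and WT-knockdown control. NR0B1 encodes an orphan nuclear receptor that mostly acts as a corepressor. The construct, the hairpin sequences, the number of clones and what the OE control carries are not stated in the labels. Nothing in the labels says that the 3 libraries of a group are separate cultures, so p-values measure the spread between these samples only.

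Cobalamin is carried in body fluids by binding proteins: TCN1 encodes haptocorrin, which binds it in saliva, gastric juice and blood, and TCN2 encodes transcobalamin, which delivers it to cells through the receptor CD320. Riboflavin crosses membranes through the carriers of the SLC52 family and becomes the flavin cofactors of dehydrogenases. Reduced folates enter through the carrier SLC19A1, folate at acid pH enters through the proton-coupled transporter SLC46A1, and FOLR1 is a membrane-anchored receptor that takes folate in by endocytosis.

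In GENCODE 29 (GRCh38), TCN1 lies on the minus strand at chr11:59852800-59866575 and TCN2 on the plus strand at chr22:30606838-30627278. SLC52A1 (chr17:5032600-5052009) and SLC52A3 (chr20:760080-776015) lie on the minus strand. SLC19A1 (chr21:45493572-45544411) and SLC46A1 (chr17:28394756-28407197) lie on the minus strand, and FOLR1 (chr11:72189558-72196323) on the plus strand. RefSeq promoter windows (GRCh38.p14) were at hand for 3 of the 8 genes. TCN1 is shown because it differed by more than 5-fold in both arms and is counted from a single transcript. These are the 162 bases before its start, chr11:59866576-59866737, read 5′ to 3′ on the minus strand, with the only match to the antioxidant response element core (TGACNNNGC, searched on both strands) in capitals:
TCN1 upstream: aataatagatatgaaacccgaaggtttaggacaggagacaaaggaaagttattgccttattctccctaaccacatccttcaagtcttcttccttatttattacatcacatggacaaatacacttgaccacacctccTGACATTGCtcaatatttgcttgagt
The match starts at base 137 of the window, counted from its 5′ end. A match to these letters is in 6.3% of the 35116 RefSeq windows of the same length. Neither the AP-1 letters TGANTCA, which 4.2% of windows hold, nor the nuclear receptor letters AGGTCA, which 7.7% hold, are in this window on either strand. The match overlaps no match to either of those motifs. It is a description of the letters and not of a bound site. Over 300 bases around the start, the TCN1 window was 43.0% G or C, and 16.8% of RefSeq windows were lower, against 65.7% G or C for SLC46A1 and 65% to 82.3% for 3 of the 4 windows of SLC19A1, the other being 47.0%.

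The libraries held 15049011 to 22797076 expected counts, of which 12800748 to 19654432 lay in the Ensembl genes. On these gene totals, before TMM adjustment, 3 counts correspond to 0.153 to 0.234 CPM (counts scaled to a library of a fixed size). NR0B1, the targeted gene, was at 98.9, 81.8 and 84.2 CPM in NR0B1 OE and at 17.9, 60.1 and 55.2 CPM in OE control. It was at 2.99, 3.31 and 5.84 CPM in NR0B1 KD and at 16.3, 21.1 and 13.3 CPM in KD control. The groups did not overlap in either arm, and NR0B1 was called in the knockdown (log2 fold change -2.06 ± 0.42 SE, edgeR adjusted p = 0.00593) but not in the overexpression (0.99 ± 0.38 SE, edgeR adjusted p = 0.0912, and 0.61 without OE control replicate 1). OE control replicate 1 stood apart in this gene, and with NR0B1 KD replicates 2 and 3 it lay farthest from the mean of its group over all genes (root mean square deviations of 0.387, 0.463 and 0.381 on the log2 scale, against 0.187 to 0.29 for the other 9). The epithelial markers EPCAM, CDH1, KRT7, KRT8, KRT18 and KRT19 summed to 2261 to 4593 FPKM (a level scaled to transcript length and library size), with EPCAM low at 0.23 to 2.6 FPKM. The alveolar type 2 markers SFTPA1, SFTPB and SFTPC summed to at most 0.1 FPKM, and 6 markers of blood, endothelial and stromal cells to at most 0.69 FPKM.

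Of the 8 genes, 6 passed the filter on low values (FPKM of 1 or more in at least 3 libraries), and SLC52A3 and FOLR1 did not. In overexpression, 3 of these 6 were called, all lower: TCN1, TCN2 and SLC52A1. Across all 11908 genes tested, 18.1% were called in overexpression and 8.2% were called lower. With a replicate block, TCN1, TCN2 and SLC52A1 had edgeR adjusted p of 0.0505, 0.0569 and 0.0548, and 1867 genes were called over all. In knockdown, 2 of the 6 were called, both higher: TCN1 and SLC52A1. With a library left out, 0 to 3 were called in overexpression (0 without NR0B1 OE replicate 2 or 3 or OE control replicate 3) and 0 to 2 in knockdown (0 without NR0B1 KD replicate 2 or any KD control replicate). Over all genes, 2152 were called in overexpression with all libraries. Without NR0B1 OE replicate 2, NR0B1 OE replicate 3 and OE control replicate 3 in turn, 962, 821 and 933 were called. In knockdown 2851 were called with all libraries and 3435 without NR0B1 KD replicate 2. Without KD control replicates 1, 2 and 3 in turn, 1708, 1897 and 1503 were called. Calls lost by single genes below are to be read beside these counts. Across all genes tested, 23.9% were called in knockdown and 12.4% were called higher. Nothing is read from these shares, since the choice of the genes used the same contrasts. The median log2 fold change of the 6 was -0.71 in overexpression and 0.35 in knockdown, against -0.03 and 0.03 for all genes tested.

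**Figure D1:**
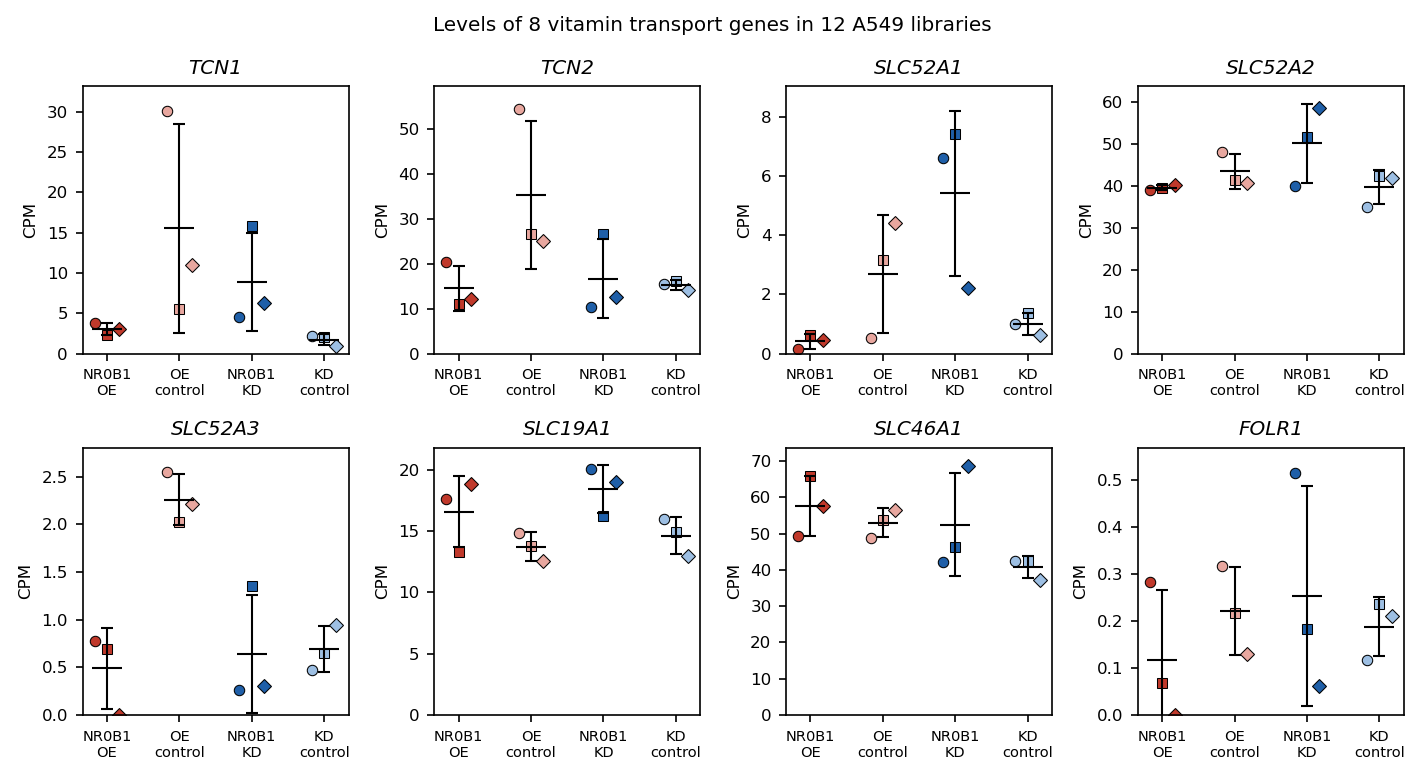
CPM (y axis, linear, from 0) of the 8 genes in the 12 libraries, with circle, square and diamond for replicates 1, 2 and 3 and black lines for the mean ± SD of 3 libraries. TCN1 and TCN2 are highest in OE control replicate 1, at 30.1 and 54.3 CPM, and SLC52A1 is highest in NR0B1 KD replicate 2, at 7.42 CPM.

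TCN1, the haptocorrin gene, was at 3.83, 2.27 and 3.05 CPM in NR0B1 OE and at 30.1, 5.46 and 11 CPM in OE control. The groups did not overlap, although the OE control libraries themselves spread more than 5-fold, with replicate 1 the highest. In NR0B1 KD, TCN1 was at 4.54, 15.8 and 6.27 CPM, and in KD control at 2.11, 2.08 and 0.893 CPM. Again the groups did not overlap, and NR0B1 KD replicate 2 stood above the other 2. The log2 fold change was -2.34 ± 0.65 SE in overexpression (edgeR adjusted p = 0.0313) and 2.39 ± 0.66 SE in knockdown (edgeR adjusted p = 0.0243), a size of 5.08-fold lower and 5.22-fold higher. The mean was 3.05 ± 0.78 CPM in NR0B1 OE and 15.5 ± 13.0 CPM in OE control, and 8.86 ± 6.05 CPM in NR0B1 KD and 1.69 ± 0.69 CPM in KD control (SD, n = 3 each). OE control and NR0B1 KD, the groups with the highest means, overlapped each other, and every NR0B1 KD library was above every NR0B1 OE library. Every NR0B1 OE library was in turn above every KD control library. Without OE control replicate 1 the overexpression value was -1.43 (edgeR adjusted p = 0.0876), and the call was also lost without any NR0B1 OE replicate or OE control replicate 3 (adjusted p over all 12 libraries left out in turn 0.0156 to 0.104); the knockdown call was lost without NR0B1 KD replicate 2 or any KD control replicate (0.00919 to 0.0936).

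TCN2, the transcobalamin gene, was at 20.3, 10.99 and 12.1 CPM in NR0B1 OE and at 54.3, 26.5 and 25.1 CPM in OE control. All 3 NR0B1 OE libraries lay below all 3 OE control libraries, and the log2 fold change was -1.29 ± 0.40 SE (edgeR adjusted p = 0.0444). In NR0B1 KD it was at 10.4, 26.6 and 12.7 CPM, against 15.6, 16.01 and 14.02 CPM in KD control. Here NR0B1 KD replicate 2 was above and the other 2 were below every KD control library. The knockdown value was 0.12 ± 0.39 SE on the log2 scale (edgeR adjusted p = 0.846), with an approximate 95% interval of -0.74 to 0.98, and without NR0B1 KD replicate 2 it was -0.40. Of the transcripts of TCN2, the main one, ENST00000215838, held 55.2% of the counts and averaged 2.71 ± 1.12 FPKM in NR0B1 OE and 5.79 ± 3.24 FPKM in OE control (SD, n = 3 each). It shares 7.92% of its 50-base words with PES1, a gene on the opposite strand that was not called in overexpression (0.61 ± 0.20 SE, edgeR adjusted p = 0.0532), and the part of PES1 in the TCN2 values was not tested. The second, ENST00000405742, held 31.1% of the counts, and was listed at 0 FPKM in NR0B1 KD replicate 1 and at 4.7 FPKM in replicate 2. The overexpression call was lost without NR0B1 OE replicate 2 or 3, any OE control replicate or any KD control replicate (edgeR adjusted p 0.0154 to 0.141), and the value without OE control replicate 1 was -0.83. The call was also lost with no filter on low values (edgeR adjusted p = 0.0562) and with only the 2 groups compared (0.0521).

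Per length, TCN2 was the higher of the cobalamin binders in every library. The share of TCN1 in their summed FPKM was 23.4% ± 2.3 in NR0B1 OE and 34.8% ± 11.3 in OE control (SD, n = 3 each). It was 42.1% ± 2.9 in NR0B1 KD and 13.4% ± 4.6 in KD control (SD, n = 3 each). In the knockdown arm the shares of 39.4%, 45.1% and 41.8% in NR0B1 KD lay apart from 16.1%, 16% and 8.1% in KD control, while in the overexpression arm OE control replicate 2, at 22.3%, was within the range of NR0B1 OE.

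SLC52A1, a riboflavin carrier, was at 0.14, 0.62 and 0.47 CPM in NR0B1 OE and at 0.51, 3.17 and 4.42 CPM in OE control. These are 2, 9 and 6 counts in NR0B1 OE and 8, 58 and 68 counts in OE control, and the groups overlapped, since OE control replicate 1 was below NR0B1 OE replicate 2. OE control replicate 1, the lowest of its group in SLC52A1, was the highest in TCN1. In NR0B1 KD, SLC52A1 was at 6.60, 7.42 and 2.21 CPM (128, 121 and 36 counts), and in KD control at 1, 1.36 and 0.63 CPM (17, 23 and 12 counts). The groups of the knockdown arm did not overlap. The log2 fold change was -2.70 ± 0.80 SE in overexpression (edgeR adjusted p = 0.0395) and 2.44 ± 0.73 SE in knockdown (edgeR adjusted p = 0.0325). SLC52A1 passed the filter only through the groups where it is high. These were OE control replicates 2 and 3 (1.08 and 1.47 FPKM) and NR0B1 KD replicates 1 and 2 (2.27 and 2.56 FPKM). Both calls are thus a description only. On the log2(FPKM + 1) scale, which understates changes of low genes, limma gave -0.68 in overexpression (adjusted p = 0.134) and 1.02 in knockdown (adjusted p = 0.0284). On the log2(FPKM + 0.1) scale neither passed by limma, at -1.79 in overexpression (adjusted p = 0.086) and 1.99 in knockdown (adjusted p = 0.0514). The overexpression call was lost without any NR0B1 OE replicate, OE control replicate 2 or 3, NR0B1 KD replicate 1 or any KD control replicate (edgeR adjusted p 0.0070 to 0.129), and the knockdown call without NR0B1 KD replicate 1 or 2 or any KD control replicate (0.00863 to 0.121).

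Nearly all SLC52A1 counts came from 2 transcripts that were not highest in the same libraries, and the other, ENST00000512825, held 0.4%. ENST00000254853, with 61.4% of the counts, was at 0.05, 0.16 and 0.16 FPKM in NR0B1 OE and at 0.17, 0.39 and 0.29 FPKM in OE control. It was at 1.77, 1.60 and 0.50 FPKM in NR0B1 KD and at 0.35, 0.34 and 0.22 FPKM in KD control. This transcript kept the groups of both arms apart, by 0.01 FPKM in the overexpression arm. ENST00000424747, with 38.2%, was at 0, 0.05 and 0 FPKM in NR0B1 OE and at 0, 0.69 and 1.18 FPKM in OE control. It was at 0.50, 0.93 and 0.25 FPKM in NR0B1 KD and at 0, 0.15 and 0 FPKM in KD control. Most of the SLC52A1 signal of OE control replicates 2 and 3 was thus assigned to this second transcript, and most of that of NR0B1 KD to the first. The split is the authors' estimate from reads that the transcripts share, and was not tested. Of the 50-base words of these transcripts, at most 0.56% occur in transcripts of other genes, and SLC52A2 is not among the 3 genes sharing most.

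**Figure D2:**
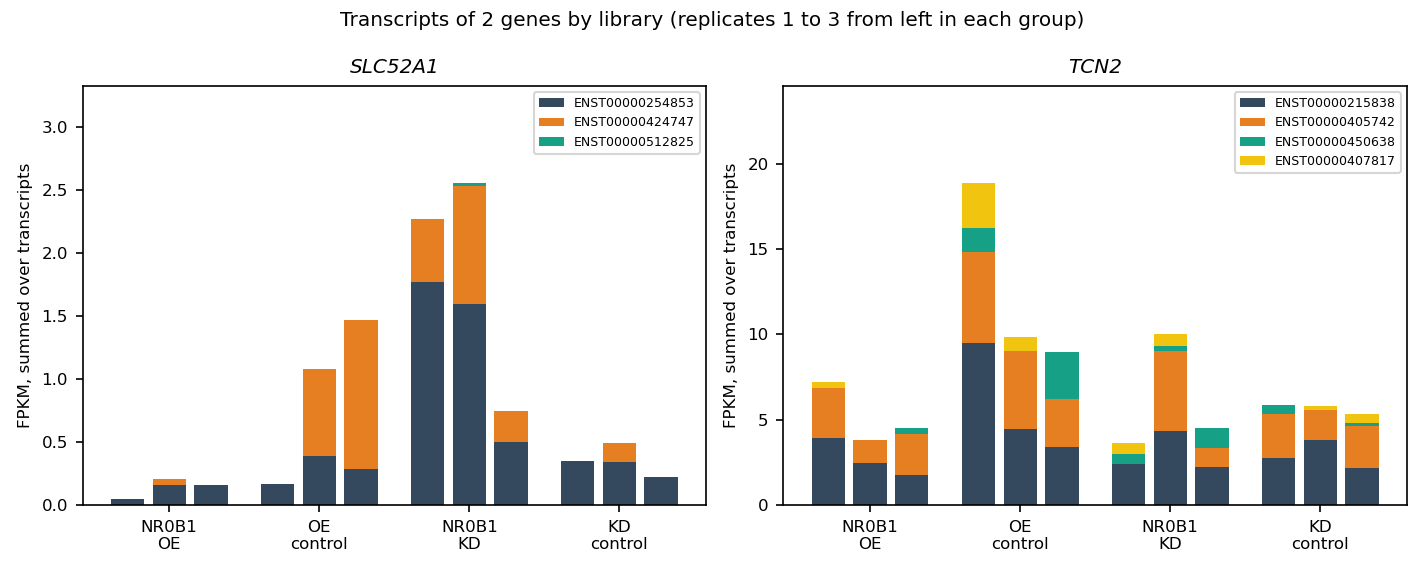
FPKM (y axis, linear, from 0) per library, stacked by transcript, for SLC52A1 and TCN2; bars in a group are replicates 1 to 3 from left. In SLC52A1, ENST00000424747 reaches 1.18 FPKM in OE control replicate 3 and is listed at 0 in OE control replicate 1, and ENST00000254853 reaches 1.77 FPKM in NR0B1 KD replicate 1.

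SLC52A2 (chr8:144354135-144361286, plus strand), the riboflavin carrier with the highest level in these cells, was at 39.0, 39.5 and 40.1 CPM in NR0B1 OE and at 48.1, 41.4 and 40.6 CPM in OE control. It was at 40, 51.7 and 58.6 CPM in NR0B1 KD and at 34.9, 42.2 and 41.8 CPM in KD control. The groups did not overlap in the overexpression arm and did in the knockdown arm, and neither contrast was called. The log2 fold change was -0.13 in overexpression (edgeR adjusted p = 0.546, approximate 95% interval -0.45 to 0.18) and 0.34 in knockdown (edgeR adjusted p = 0.112, interval 0.02 to 0.65). With a library left out the knockdown value was 0.21 to 0.48 (edgeR adjusted p 0.0309 to 0.338). It was called only without NR0B1 KD replicate 1. Of its counts, 59.4% lay in a transcript that shares 0.29% of its 50-base words with FBXL6, a gene on the opposite strand, while 11.5% and 21.9% lay in transcripts that share 19.8% and 19.2%. FBXL6 was called lower in overexpression (-1.105 ± 0.226 SE, edgeR adjusted p = 0.0096) and was not called in knockdown (-0.07, edgeR adjusted p = 0.847). The part of FBXL6 in the SLC52A2 values was not tested.

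SLC52A3, the third riboflavin carrier, stayed under the filter. It had 11, 10 and 0 counts in NR0B1 OE (0.78, 0.69 and 0 CPM) and 40, 37 and 34 counts in OE control (2.54, 2.02 and 2.21 CPM). It had 5, 22 and 5 counts in NR0B1 KD (0.26, 1.35 and 0.31 CPM) and 8, 11 and 18 counts in KD control (0.47, 0.65 and 0.95 CPM). The OE control libraries were above all the other 9, and the groups of the knockdown arm overlapped. With the filter removed, the overexpression log2 fold change was -2.17 ± 0.89 SE and did not pass (edgeR adjusted p = 0.143 over 17197 genes).

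Per length, SLC52A2 made up 88.3% to 99.1% of the summed FPKM of the riboflavin carriers in the 12 libraries, or 98.4% ± 0.7 in NR0B1 OE and 91.9% ± 3.5 in OE control (SD, n = 3 each). In NR0B1 KD it made up 91.2% ± 4.8, and in KD control 97.0% ± 0.3 (SD, n = 3 each). The share of SLC52A1 was 0.3%, 1.2% and 0.9% in NR0B1 OE and 0.8%, 5.5% and 7.7% in OE control. In NR0B1 KD it was 11.3%, 9.9% and 2.9%, and in KD control 2.1%, 2.4% and 1.2%. The riboflavin carrier with the large fold changes was thus a minor part of the family's mRNA in every library.

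Among the folate genes, SLC19A1, the reduced folate carrier, was at 17.6, 13.3 and 18.9 CPM in NR0B1 OE and at 14.9, 13.8 and 12.6 CPM in OE control. It was at 20.1, 16.3 and 19.0 CPM in NR0B1 KD and at 15.96, 14.9 and 12.97 CPM in KD control. The groups overlapped in overexpression and did not in knockdown, where all 3 NR0B1 KD libraries were higher, but neither contrast was called. The log2 fold change was 0.27 in overexpression (edgeR adjusted p = 0.269, approximate 95% interval -0.09 to 0.64) and 0.33 in knockdown (edgeR adjusted p = 0.161, interval -0.03 to 0.70).

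SLC46A1, the proton-coupled folate transporter, was at 49.3, 65.9 and 57.5 CPM in NR0B1 OE and at 48.7, 53.7 and 56.6 CPM in OE control. It was at 42.2, 46.4 and 68.6 CPM in NR0B1 KD and at 42.4, 42.5 and 37.2 CPM in KD control. The groups overlapped in both arms, with NR0B1 KD replicate 3 the highest of all 12 libraries. The log2 fold change was 0.12 in overexpression (edgeR adjusted p = 0.670, approximate 95% interval -0.27 to 0.51) and 0.36 in knockdown (edgeR adjusted p = 0.158, interval -0.03 to 0.75); the knockdown value was 0.12 without NR0B1 KD replicate 3. These levels are uncertain, because the counted SLC46A1 transcripts share 61.9% to 73.0% of their 50-base words with SARM1, a gene on the opposite strand that encodes an NAD-cleaving enzyme, and the strand setting of the counting is not known here. SARM1 was at 80.8, 75.8 and 60.7 CPM in NR0B1 OE and at 49.9, 21.0 and 17.6 CPM in OE control (log2 fold change 1.3 ± 0.34 SE, edgeR adjusted p = 0.0244), a call lost without NR0B1 OE replicate 1 or 2 or OE control replicate 2 or 3 (up to 0.0914). In the knockdown arm SARM1 was at 14.4, 23.4 and 22.8 CPM in NR0B1 KD and at 35.2, 34.5 and 34.4 CPM in KD control. These groups did not overlap, but SARM1 was not called (-0.78 ± 0.34 SE, edgeR adjusted p = 0.114). It was called lower by limma on log2(FPKM + 1) (adjusted p = 0.0288) and on log2(FPKM + 0.1) (0.0312). By edgeR it was called with only the 2 groups compared (0.0449), without OE control replicate 1 (0.0114) and without NR0B1 KD replicate 2 as well (0.00578). In the other settings it was not called. The part of SARM1 in the SLC46A1 values was not tested.

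FOLR1, the folate receptor, had 4, 1 and 0 counts in NR0B1 OE and 5, 4 and 2 counts in OE control. It had 10, 3 and 1 counts in NR0B1 KD and 2, 4 and 4 counts in KD control. With at most 0.52 CPM or 0.40 FPKM in any library it was close to the level that 3 counts give, and the groups overlapped in both arms, so no difference was detectable at this depth. The related receptors FOLR2, FOLR3 and IZUMO1R all stayed under the filter, and FOLR2 was listed at 0 in every library.

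**Figure D3:**
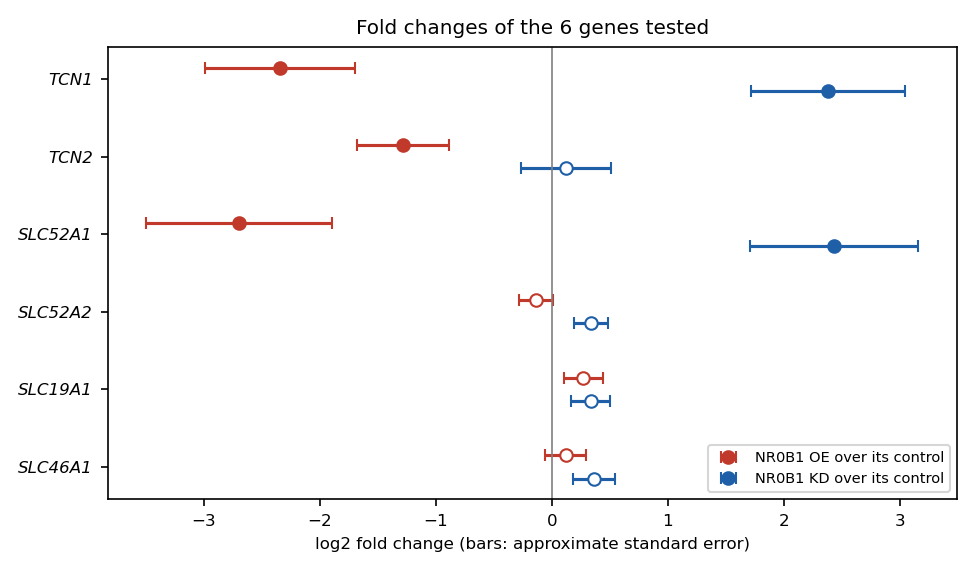
Log2 fold change (x axis) of the 6 genes tested, NR0B1 OE over OE control in red and NR0B1 KD over KD control in blue, with bars of approximately 1 standard error and filled points where the adjusted p was below 0.05. TCN1 (-2.34 and 2.39) and SLC52A1 (-2.70 and 2.44) are filled in both arms, TCN2 (-1.29) in overexpression alone, and the rest are open.

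The arms differed for 2 of the 6 genes by the test of the difference itself, the overexpression effect minus the knockdown effect. The difference was -4.73 ± 0.93 SE for TCN1 (edgeR adjusted p = 0.00451) and -5.13 ± 1.08 SE for SLC52A1 (edgeR adjusted p = 0.00623) on the log2 scale, and 25.6% of all genes tested were called in this comparison. For TCN2 it was -1.41 ± 0.56 SE (edgeR adjusted p = 0.0832). With each library left out in turn, TCN1 and SLC52A1 were called every time in this comparison. SLC52A2 was not called with all libraries (-0.47, edgeR adjusted p = 0.1115), and was called only without NR0B1 KD replicate 1 (0.0323). The genes were chosen by the fold changes of both arms, so neither this test nor its stability is independent evidence.

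The control groups differed from each other in some of the same genes. Between OE control and KD control, TCN1 was higher in OE control by 3.20 ± 0.68 SE on the log2 scale (edgeR adjusted p = 0.00528) and TCN2 by 1.22 ± 0.39 SE (edgeR adjusted p = 0.0345). SLC52A1 was at 1.44 ± 0.72 SE (edgeR adjusted p = 0.144). NR0B1 itself was also higher in OE control, by 1.395 ± 0.39 SE (edgeR adjusted p = 0.0189). TCN1 and NR0B1 thus differed in the same direction between the controls, and in opposite directions within each arm. The cause was not tested. Of all genes tested, 33.4% were called between the controls. The TCN2 call was lost without OE control replicate 1 (0.77, edgeR adjusted p = 0.129) and without any KD control replicate.

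The genes whose level over the 12 libraries was most like that of TCN1, by Pearson's r of log2(CPM + 1), were ATP6AP1 (0.952), SH3TC1 (0.943) and DDR1 (0.937). For TCN2 they were LCN2 (0.972), GALT (0.971) and CTSD (0.961). LCN2 encodes lipocalin 2, which binds iron-carrying siderophores, and CTSD encodes the lysosomal protease cathepsin D. LCN2 ranged over 4.54 to 133 CPM and CTSD over 339 to 1072 CPM. For SLC52A2 the values were lower, at 0.813 for NECAB3 and 0.797 for CTNNB1. For SLC19A1 they were RBBP9 (0.894), PITPNA (0.871) and DCAF6 (0.869), and for SLC46A1 they were KIAA1024 (0.909), MALSU1 (0.890) and MRPL17 (0.890). The points share the libraries and their depth, and the genes were picked as the highest of all tested, so these values are a description.

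Other genes of these vitamins' pathways, and transporters of other vitamins, were counted from lists drawn up by function. The lists were chosen with earlier results of these data known, so their counts are a description and no independent evidence. Of 51 genes, 42 were tested, and 6 were called in overexpression (14.3%, against 18.1% of all genes) and 7 in knockdown (16.7%, against 23.9% of all genes). In overexpression 1 was higher and 5 lower, with a median log2 fold change of -0.12, and in knockdown 4 were higher and 3 lower, with a median of 0.01. Without OE control replicate 1 and NR0B1 KD replicate 2, which had the largest root mean square deviations, 12 were called in overexpression and 15 in knockdown, and over all genes 4462 and 4493 were called, against 2152 and 2851 with them. The overexpression count was 3 without NR0B1 OE replicate 3, and the knockdown count was 14 without OE control replicate 1, 12 without NR0B1 KD replicate 2, 4 without KD control replicate 1 and 3 without KD control replicate 3.

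Of 11 flavoenzyme genes, 4 fell in overexpression (8.2% of all genes tested were called lower), 0 rose and 7 did not pass. ETFB, a subunit of the electron transfer flavoprotein, averaged 70.4 ± 5.5 CPM in NR0B1 OE and 116 ± 9 CPM in OE control (SD, n = 3 each; log2 fold change -0.72, edgeR adjusted p = 0.00255). ACADVL, the dehydrogenase of very long-chain acyl-CoA, averaged 218 ± 5 CPM in NR0B1 OE and 337 ± 10 CPM in OE control (SD, n = 3 each; -0.63, edgeR adjusted p = 0.0029). SDHA, the flavoprotein of respiratory complex II, fell by 0.43 (edgeR adjusted p = 0.0161), and ACADS, the short-chain dehydrogenase, fell by 0.73 (edgeR adjusted p = 0.0373) on the log2 scale. ETFB and ACADVL were called with every library left out in turn. SDHA lost its call without any NR0B1 OE replicate or OE control replicate 2 or 3 (edgeR adjusted p up to 0.0704), and ACADS without any replicate of the overexpression arm or KD control replicate 1 or 2 (up to 0.113). In knockdown DLD, the dihydrolipoamide dehydrogenase, fell and the other 10 did not pass (9.09% called, against 23.9% of all genes). DLD averaged 90.6 ± 4.2 CPM in NR0B1 KD and 127 ± 4 CPM in KD control (SD, n = 3 each; -0.48, edgeR adjusted p = 0.0182); it lost its call without KD control replicate 3 (edgeR adjusted p = 0.0601).

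Of the 3 genes of flavin synthesis and transport into mitochondria, SLC25A32, a mitochondrial carrier linked to folate and FAD, rose in overexpression. It was at 47.5, 52.3 and 49.9 CPM in NR0B1 OE and at 33.5, 25.6 and 22.8 CPM in OE control (0.87 ± 0.18 SE, edgeR adjusted p = 0.0108). FLAD1, the FAD synthase, fell in knockdown, with 49.6, 51.8 and 47.7 CPM in NR0B1 KD and 70.4, 68.5 and 73.8 CPM in KD control (-0.51 ± 0.15 SE, edgeR adjusted p = 0.0299). Neither pair of groups overlapped. In each arm 1 of the 3 genes was called (33.3%), against 18.1% of all genes in overexpression and 23.9% in knockdown. FLAD1 lost its call without NR0B1 KD replicate 1 or 3 or any KD control replicate (edgeR adjusted p up to 0.0864). 

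Of the cobalamin receptor genes, CD320 was the only gene of 5 above the filter. CD320, the receptor for transcobalamin, averaged 23.8 ± 2.6 CPM in NR0B1 OE and 25.4 ± 4.8 CPM in OE control, and 20.0 ± 1.6 CPM in NR0B1 KD and 25.1 ± 2.5 CPM in KD control (SD, n = 3 each). It was not called in overexpression (-0.10, edgeR adjusted p = 0.699) or in knockdown (-0.33, edgeR adjusted p = 0.154). Inside the cell, 9 genes of cobalamin handling were tested, and MUT, the cobalamin-dependent methylmalonyl-CoA mutase, was the 1 called in overexpression. That is 11.1% of the list, against 18.1% of all genes. MUT was at 14.6, 17.4 and 13.0 CPM in NR0B1 OE and at 24.9, 25.2 and 26.3 CPM in OE control (-0.76 ± 0.16 SE, edgeR adjusted p = 0.0118). Its call was lost without NR0B1 OE replicate 3 (edgeR adjusted p = 0.0619). In knockdown none of the 9 was called (against 23.9% of all genes). The genes of highest mean FPKM in this list, MMADHC and MTRR, were at -0.19 and -0.25 on the log2 scale. The median of the 9 was 0.12, and their edgeR adjusted p reached down to 0.052.

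Of 8 genes of folate retention and export, 3 rose in knockdown (12.4% of all genes tested were called higher) and 0 fell. ABCC5, an exporter that carries cyclic nucleotides and folates, was at 56.6, 48.2 and 46.9 CPM in NR0B1 KD and at 17.8, 19.7 and 14.8 CPM in KD control (1.54 ± 0.14 SE, edgeR adjusted p = 8.43e-05). FPGS, which adds glutamates to folates and so keeps them in the cell, was at 54.4, 71.2 and 53.3 CPM in NR0B1 KD and at 38.0, 39.9 and 32.6 CPM in KD control (0.70 ± 0.14 SE, edgeR adjusted p = 0.00593). GGH, which removes those glutamates, was at 33.1, 32.4 and 37.0 CPM in NR0B1 KD and at 23.3, 27.2 and 24.1 CPM in KD control (0.46 ± 0.12 SE, edgeR adjusted p = 0.0156). None of the 3 pairs of groups overlapped, and the genes act in opposite directions on cellular folate. ABCC5 and FPGS were called with every library left out in turn, and GGH lost its call without KD control replicate 1 or 3 (edgeR adjusted p up to 0.0757). In overexpression none of the 8 was called (against 18.1% of all genes), and the most abundant, ABCC3 and ABCC2, were at -0.39 and 0.16.

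None of the 3 folate enzyme genes was called, against 18.1% of all genes in overexpression and 23.9% in knockdown. TYMS, thymidylate synthase, was at -0.02 in overexpression (edgeR adjusted p = 0.950) and at 0.56 in knockdown (edgeR adjusted p = 0.0604). SLC46A3, a relative of SLC46A1, was at -1.25 (edgeR adjusted p = 0.0747) in overexpression and 0.51 (edgeR adjusted p = 0.435) in knockdown.

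Among transporters of other vitamins, 6 of 7 were tested and 2 were called, both in knockdown. That is 33.3% of those tested, against 23.9% of all genes in knockdown, and 0 were called in overexpression, against 18.1% of all genes. SLC19A2, a thiamine transporter of the same family as SLC19A1, was at 12.01, 15.1 and 13.7 CPM in NR0B1 KD and at 24.2, 23.1 and 33.4 CPM in KD control (-0.99 ± 0.16 SE, edgeR adjusted p = 0.00184), and was called with every library left out in turn. SLC23A2, an ascorbate transporter, was at 109, 362 and 120 CPM in NR0B1 KD and at 86.4, 89.1 and 57.0 CPM in KD control (1.35 ± 0.44 SE, edgeR adjusted p = 0.0478). Without NR0B1 KD replicate 2 the SLC23A2 value was 0.56, and its call was lost without that library, any NR0B1 OE replicate, OE control replicate 2 or 3 or any KD control replicate (edgeR adjusted p 0.0289 to 0.185). The most abundant genes of this list in overexpression, SLC23A2 and SLC5A6, were at -0.62 and 0.70 and were not called.

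**Figure D4:**
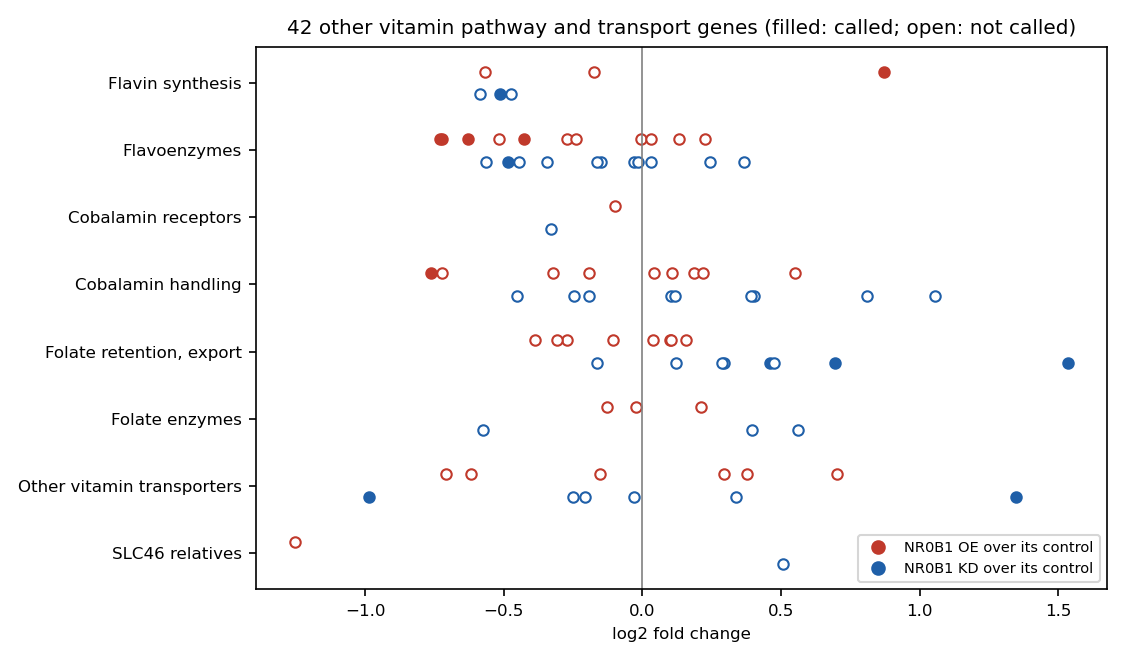
Log2 fold change (x axis) of the 42 other vitamin pathway and transport genes tested, by list (rows), NR0B1 OE over OE control in red above and NR0B1 KD over KD control in blue below, filled where the adjusted p was below 0.05. Filled red points are mostly flavoenzymes below 0, and the filled blue points of folate retention and export lie above 0, up to 1.54 for ABCC5.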

How the data were processed

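RNA of A549 cells was sequenced in 12 libraries (4 groups of 3). The deposited table gives expected counts and FPKM per transcript, made by the authors; both units are named in the file header. The submitters' processing notes list HISAT2 2.0.5, StringTie 1.3.1, Bowtie2 2.2.8, RSEM and fastp. The notes name mouse builds although the transcript IDs are human, so coordinates come from GENCODE 29 (GRCh38). The annotation release, filters and strand setting are not stated in the labels.

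Of 96247 rows, 82270 have Ensembl transcript IDs and 82237 of these are in GENCODE 29. The 13977 assembled transcripts (13.3% to 15.4% of expected counts) were left out of gene values. In 184 rows a symbol turned into a date was restored from the ID. Counts and FPKM were summed per symbol and the count sums rounded to whole numbers. Genes that reached an FPKM of 1 in 3 libraries or more (of 12) entered edgeR 4.0.16 (glmQLFit and glmQLFTest, robust, TMM; R 4.3.3), 1 mean per group, 8 residual degrees of freedom, Benjamini-Hochberg over 11908 genes, called at an adjusted p below 0.05. The biological coefficient of variation was 24.5%. CPM use TMM-adjusted library sizes. SE is the absolute log2 fold change over the square root of F, and approximate 95% intervals use the t quantile at the degrees of freedom of that F test. Alternatives used DESeq2 1.42.0, limma 3.58.1 on log2(FPKM + 1) and log2(FPKM + 0.1), other scaling, filters, samples and a replicate block. Shared sequence was counted over transcripts as 50-base words on both strands. The code was tested on simulated data.

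The genes described and the pathway lists were chosen with earlier results of these data known. Named were the 8 genes and NR0B1, up to 4 called genes per list and arm by adjusted p (in a list with no call, the 2 of highest mean FPKM), and the 3 genes most correlated with each tested member whose mean FPKM was 1 or more. Of the genes this rule names, 2 are not reported here. SARM1 and FBXL6 are named for their overlap, and RefSeq (GRCh38.p14) supplied the promoter sequence. Depth limits low genes, and the floor of 3 counts reflects counting error alone, because PCR copies cannot be told from separate molecules.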

Additional observations from a re-analysis of the deposited data

Results flagged for a closer look

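The response of 2 genes differed between the arms by the test of the difference, the overexpression effect minus the knockdown effect. For SLC52A1 this was -5.13 on the log2 scale and for TCN1 it was -4.73, as given above with their errors. The genes were chosen by the fold changes of both arms, so these values are a description. Outside the gene sums, an assembled transcript assigned to SLC52A3 held 8 counts in NR0B1 OE replicate 3 and 0 in the other 11 libraries, among them all control libraries. In that library the Ensembl transcripts of SLC52A3 held 0 counts.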

How the results depend on the processing

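Of 498 alternative values for the 6 genes, 434 kept direction and side of the threshold, 44 lost a call, 9 gained a call and 11 changed sign. The number called in overexpression (3) was 1 with only the 2 groups compared, 0 with the replicate block and 0 to 3 with a library left out; in knockdown (2) it was 1 by limma on log2(FPKM + 0.1) and 0 to 2 with a library left out, and between the controls (2) it was 1 to 3 with a library left out. In overexpression the SLC52A1 call was also lost by limma on both FPKM scales, and the TCN2 call with no filter on low values. Same-numbered libraries deviated together only weakly (r of -0.217 to 0.25, and of 0.25, 0.181 and 0.001 within the overexpression arm). Libraries of different numbers were not compared, so whether the numbers pair the samples is not settled. Under the replicate block TCN1, TCN2 and SLC52A1 had edgeR adjusted p of 0.0505, 0.0569 and 0.0548 in overexpression. The pathway genes called were 12 in overexpression and 15 in knockdown without OE control replicate 1 and NR0B1 KD replicate 2 together, 15 in knockdown by DESeq2 and 15 with assembled transcripts added; with a library left out they were 3 to 8 in overexpression and 3 to 14 in knockdown. The causes were not tested. Values that changed sign were never called: SLC46A1 in overexpression (-0.038 by limma on log2(FPKM + 1), -0.041 on log2(FPKM + 0.1)), TCN2 in knockdown (-0.029 and -0.051 by the same; -0.398 without both libraries; -0.399 to 0.371 with a library left out) and the SLC19A1 difference of the arms (0.052 and 0.060 by limma; -0.144 to 0.092 with a library left out). Without OE control replicate 1 and NR0B1 KD replicate 2, TCN1 was -1.43 in overexpression and 1.67 in knockdown, and the members called in each arm were the same as with them; between the controls SLC52A1 was called too. NR0B1 in overexpression was called by DESeq2 (adjusted p = 0.0415) and by limma on log2(FPKM + 1) (0.0452). Of 357 values for the called pathway genes, NR0B1 and SARM1, 42 lost a call, 7 gained a call and 0 changed sign. Depth limits SLC52A1, SLC52A3 and FOLR1.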
